A study of Schmidtea mediterranea with 6 samples.

Results

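Transcripts cloned as markers of the planarian intestine were examined in whole-animal RNA-Seq of *nkx2.2(RNAi)* planarians. They were *ctsla* (*cathepsin La*, dd_Smed_v6_267_0_1, 1208 bases), *npc2* (*Niemann-Pick type C2*, dd_Smed_v6_73_0_1, 540 bases) and *slc22a6* (*solute carrier family 22 member 6*, dd_Smed_v6_1159_0_1, 1972 bases). These were 3 of the 28069 transcripts in the table of counts, taken by the identifiers that the study lists for its cloned probes. Earlier results of these data were known when they were chosen. All 3 were among the 14871 transcripts abundant enough to test. The animals were uninjured *Schmidtea mediterranea* of an asexual clonal line. In *nkx2.2(RNAi)* animals, double-stranded RNA (dsRNA) of the transcription factor *nkx2.2* had been given by feeding, and in control animals dsRNA of *egfp*, which has no planarian target. Both groups were fed 1 time with 1 µg dsRNA and then starved for 7 days, and per the labels each group had 3 replicates of 6 to 10 pooled animals, while the methods of the study state a lower range. The knockdown was systemic, so *nkx2.2* was targeted in every cell that uses it.

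The planarian intestine is a branched, blind-ended gut that digests food inside its own cells. Its absorptive phagocytes take up food particles and break them down in lysosomes, its goblet cells are secretory, and a further population of cells lies at the base of the epithelium. An earlier survey of intestinal transcripts is the source for using *ctsla* as a phagocyte marker, *npc2* as a goblet cell marker and *slc22a6* as a marker of the basal cells. Neither the labels nor the study's methods assign the 3 transcripts to these cells, so the assignment stands as background, and no result below rests on it. Cathepsin L-like proteins are cysteine proteases of the lysosome. In mammals NPC2 is a small soluble protein that binds cholesterol in the lysosome and passes it to the membrane protein NPC1, and SLC22A6 carries organic anions across the cell membrane. The regional question is whether the 3 markers moved together in *nkx2.2(RNAi)* animals or apart.

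A stretch of each clone is shown so that the transcripts counted can be recognised, as listed in the study's sheet of cloned sequences. The 3 stretches come from 399 listed bases each and lie within 1 open reading frame. Capitals mark the first ATG of that frame in *npc2* and *slc22a6*, and the *ctsla* stretch has no capitals because it lies inside the frame, at bases 248 to 397 of those listed. The *npc2* stretch covers bases 2 to 151 and the *slc22a6* stretch bases 255 to 398.
ctsla: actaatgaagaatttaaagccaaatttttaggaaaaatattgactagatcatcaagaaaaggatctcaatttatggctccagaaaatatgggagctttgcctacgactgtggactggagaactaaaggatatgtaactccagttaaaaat
npc2: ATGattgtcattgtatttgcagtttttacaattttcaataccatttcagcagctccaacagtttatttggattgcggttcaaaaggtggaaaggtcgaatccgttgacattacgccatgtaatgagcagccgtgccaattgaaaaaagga
slc22a6: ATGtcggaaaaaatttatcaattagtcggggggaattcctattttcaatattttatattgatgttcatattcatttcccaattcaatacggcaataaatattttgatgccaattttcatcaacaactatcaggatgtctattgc

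The libraries held 55.9 to 65.5 M counts in *nkx2.2(RNAi)* animals and 53.3 to 59.4 M counts in controls. The targeted transcript *nkx2.2* was at 8.65 to 9.09 CPM (counts per 1 M counts of the library, scaled between libraries) in *nkx2.2(RNAi)* libraries, against 168 to 220 CPM in control libraries. On the first principal component, which held 67.6% of the variance, *nkx2.2(RNAi)* replicate 1 lay at 13.4, closer to the controls (-39.7 to -27.0) than replicates 2 and 3 did (40.1 and 40.8). The 3 markers, their ratios and some related transcripts are therefore also given without it. The transcripts of other cell types that follow here were read with all libraries only. Of 7 transcripts cloned for other cell types or for position (*piwi-1*, *tgs-1*, *prog-1*, *ChAT*, *laminin*, *notum* and *wnt11-2*), 0 were called by the edgeR exact test, the quasi-likelihood test, DESeq2 or limma-voom. At an unadjusted p under 0.05 the count was also 0 by the exact test, the quasi-likelihood test and limma-voom. Of all tested transcripts, 5.43% were called lower and 5.18% higher by the exact test, so 0 calls among 7 is near the general share. The log2 fold changes of the 7 lay between -0.14 and 0.11. The lowest was that of *piwi-1* (exact test FDR 0.363 in edgeR). It stood at 412 to 436 CPM in *nkx2.2(RNAi)* libraries and 459 to 469 CPM in controls, without overlap. Such separation with *nkx2.2(RNAi)* lower held for 12.9% of all tested transcripts. The summed level of the 7 was 1039 to 1180 CPM in *nkx2.2(RNAi)* libraries and 1142 to 1185 CPM in controls. Most of it came from *piwi-1* and *prog-1* (421 and 578 CPM on average in *nkx2.2(RNAi)*). RNA came from whole animals, so fewer cells of a type and less RNA per cell cannot be told apart.

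The 3 markers moved apart. *ctsla* was lower, *slc22a6* was higher and *npc2* was not called. *ctsla*, the protease transcript, stood at 674, 942 and 1226 CPM in *nkx2.2(RNAi)* replicates 1 to 3, against 2464, 2391 and 2761 CPM in control replicates 1 to 3. The highest *nkx2.2(RNAi)* library lay well under the lowest control, so the groups did not overlap, and *nkx2.2(RNAi)* replicate 1 was the lowest of all. The means were 947 ± 276 CPM in *nkx2.2(RNAi)* animals and 2539 ± 196 CPM in controls (SD, n = 3 each), which left *ctsla* at 37.3% of control. This is a log2 fold change of -1.42 (SE 0.26). In edgeR the FDR was 5.1e-11 by the exact test and 0.0019 by the quasi-likelihood test, and limma-voom gave a 95% interval from -1.88 to -1.03. In all, 5.43% of the tested transcripts were called lower by the exact test and 3.42% by the quasi-likelihood test. Libraries of the groups did not overlap, with *nkx2.2(RNAi)* lower, for 12.9% of the tested transcripts. *ctsla* ranked 175 of the 808 lower transcripts by size of change. The counting error is negligible here, since each library held at least 46347 counts of *ctsla*. Without *nkx2.2(RNAi)* replicate 1 the log2 fold change was -1.23 (FDR 7.6e-17 in edgeR), in a fit that called 17.1% of 14675 tested transcripts lower and 14.3% higher.

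*npc2*, the sterol-binding protein transcript, stood at 335, 479 and 497 CPM in *nkx2.2(RNAi)* replicates 1 to 3, against 406, 429 and 442 CPM in control replicates 1 to 3. The *nkx2.2(RNAi)* libraries lay on both sides of the controls, with replicate 1 under all of them and replicates 2 and 3 above all of them. Means were 437 ± 88.5 CPM in *nkx2.2(RNAi)* animals and 426 ± 17.9 CPM in controls (SD, n = 3 each). The log2 fold change of 0.04 (SE 0.18) was not past the threshold in edgeR (exact test FDR 0.908, quasi-likelihood FDR 0.886). Its 95% interval by limma-voom ran from -0.29 to 0.34, which leaves room for a fall to 0.815 of the control level or a rise to 1.26 times that level. The coefficient of variation was 20.3% among *nkx2.2(RNAi)* libraries and 4.21% among controls. Without *nkx2.2(RNAi)* replicate 1 the log2 fold change was 0.19, also not past the threshold (FDR 0.106 in edgeR).

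*slc22a6*, the organic anion transporter transcript, stood at 310, 319 and 297 CPM in *nkx2.2(RNAi)* replicates 1 to 3, against 191, 185 and 211 CPM in control replicates 1 to 3. All *nkx2.2(RNAi)* libraries were higher than all controls, and replicate 1 lay between the other two. The means were 309 ± 10.8 CPM in *nkx2.2(RNAi)* animals and 196 ± 13.9 CPM in controls (SD, n = 3 each), so the transcript rose to 158% of control. The log2 fold change of 0.66 (SE 0.07) had an FDR of 5.5e-09 by the exact test and 0.0014 by the quasi-likelihood test in edgeR. Its 95% interval by limma-voom ran from 0.47 to 0.85. In all, 5.18% of the tested transcripts were called higher by the exact test and 3.04% by the quasi-likelihood test, and 14.7% did not overlap with *nkx2.2(RNAi)* higher. *slc22a6* ranked 181 of the 771 higher ones by size. The rise was close to 1.5-fold, and against a null hypothesis of a change of at most 1.5-fold it was not past the threshold (FDR 1.00 in edgeR). All 3 markers belonged to the 1487 most abundant of the tested transcripts. There the median log2 fold change was 0.14 (quartiles 0.0003 and 0.25), with 187 of 1487 transcripts called higher and 64 lower. With offsets that remove this trend with abundance, *slc22a6* was at 0.53 (quasi-likelihood FDR 0.0040 in edgeR) and *ctsla* at -1.61. The spread of *slc22a6* among *nkx2.2(RNAi)* libraries was small, with a coefficient of variation of 3.49%, against 29.1% for *ctsla* in the same libraries.

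**Figure D1:**
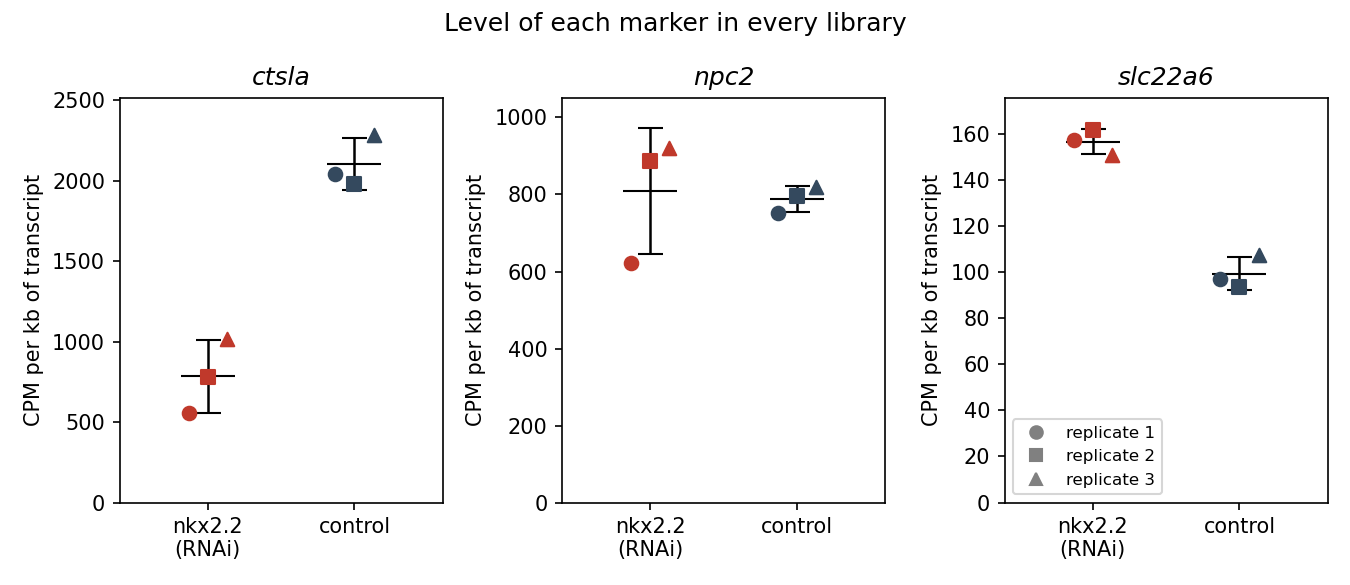
CPM per kb of transcript of *ctsla*, *npc2* and *slc22a6* (1 panel each, axes from 0) in the 3 *nkx2.2(RNAi)* libraries (left, red) and the 3 control libraries (right, blue-grey). Symbols give the replicate, the long line the mean and the bars the SD; *ctsla* lies at 558 to 1015 in *nkx2.2(RNAi)* against 1979 to 2285 in controls, *npc2* overlaps, and *slc22a6* lies at 151 to 162 in *nkx2.2(RNAi)* against 93.6 to 107 in controls.

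Levels of different transcripts were compared per length, as CPM per kb. In *nkx2.2(RNAi)* animals *npc2* (810 ± 164 CPM per kb) and *ctsla* (784 ± 228 CPM per kb) were level, and *slc22a6* followed at 157 ± 5.46 CPM per kb (SD, n = 3). In controls the order was *ctsla* (2102 ± 162 CPM per kb), *npc2* (789 ± 33.2 CPM per kb) and *slc22a6* (99.3 ± 7.06 CPM per kb), with no overlap between neighbours. The order of *npc2* and *ctsla* in *nkx2.2(RNAi)* animals was within their spread, since *npc2* was the higher one in replicates 1 and 2 and *ctsla* in replicate 3. Without replicate 1 their means were 904 and 897 CPM per kb. Among all 14871 tested transcripts, *ctsla* ranked 157 by mean CPM per kb in *nkx2.2(RNAi)* animals, against 27 in controls. The rank of *npc2* was 149 in *nkx2.2(RNAi)* animals and 142 in controls, and that of *slc22a6* was 797 in *nkx2.2(RNAi)* animals and 1147 in controls.

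The 3 markers together summed to 1750 ± 381 CPM per kb in *nkx2.2(RNAi)* animals and to 2989.5 ± 192 CPM per kb in controls (SD, n = 3 each). Of this sum, *ctsla* took 44.3 ± 3.76% in *nkx2.2(RNAi)* animals and 70.3 ± 1.12% in controls. *npc2* took 46.4 ± 2.21% in *nkx2.2(RNAi)* animals and 26.4 ± 1.16% in controls. For *slc22a6* the share was 7.23% to 11.8% in *nkx2.2(RNAi)* libraries and 3.26% to 3.36% in controls. The shares are tied to each other, because a lower *ctsla* raises the share of the others.

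Ratios within a library do not depend on how libraries are scaled, but they compare transcripts of 540, 1208 and 1972 bases. Whether libraries differed in a way that depends on transcript length was not tested. The ratio of *ctsla* to *npc2*, per kb, was 0.898, 0.878 and 1.10 in *nkx2.2(RNAi)* replicates 1 to 3, against 2.71, 2.49 and 2.79 in control replicates 1 to 3. The groups did not overlap, and the *nkx2.2(RNAi)* ratios were close to parity while every control held an excess of *ctsla*. On the log2 scale the ratio was -0.07 ± 0.18 in *nkx2.2(RNAi)* animals and 1.41 ± 0.09 in controls (SD, n = 3 each), a difference of -1.48 (SE 0.12). The ratio of *slc22a6* to *npc2*, per kb, was 0.253, 0.182 and 0.164 in *nkx2.2(RNAi)* replicates 1 to 3, against 0.129, 0.118 and 0.131 in control replicates 1 to 3. Every *nkx2.2(RNAi)* ratio was above every control ratio, and replicate 1 stood highest, where *npc2* was lowest. The log2 ratio was -2.35 ± 0.33 in *nkx2.2(RNAi)* animals and -2.99 ± 0.08 in controls (SD, n = 3 each), a difference of 0.64 (SE 0.20) that became 0.46 without *nkx2.2(RNAi)* replicate 1.

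The ratio of *ctsla* to *slc22a6* moved most of the 3. It was 3.55, 4.82 and 6.73 per kb in *nkx2.2(RNAi)* replicates 1 to 3, against 21.0, 21.1 and 21.3 per kb in control replicates 1 to 3. Controls were nearly identical to each other, whereas the *nkx2.2(RNAi)* libraries were spread out and all far lower. The log2 ratio was 2.28 ± 0.46 in *nkx2.2(RNAi)* animals and 4.40 ± 0.01 in controls (SD, n = 3 each). The difference of -2.12 (SE 0.27) corresponds to a ratio at 0.230 of that in controls, and it was -1.89 without *nkx2.2(RNAi)* replicate 1. For each of the 3 ratios the two-sided exact permutation test gave p = 0.1, also after Benjamini-Hochberg adjustment over the 3, which is the smallest p that 3 libraries against 3 allow. The test can therefore not pass a threshold of 0.05, and the ratios are tied, since any one follows from the other two.

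**Figure D2:**
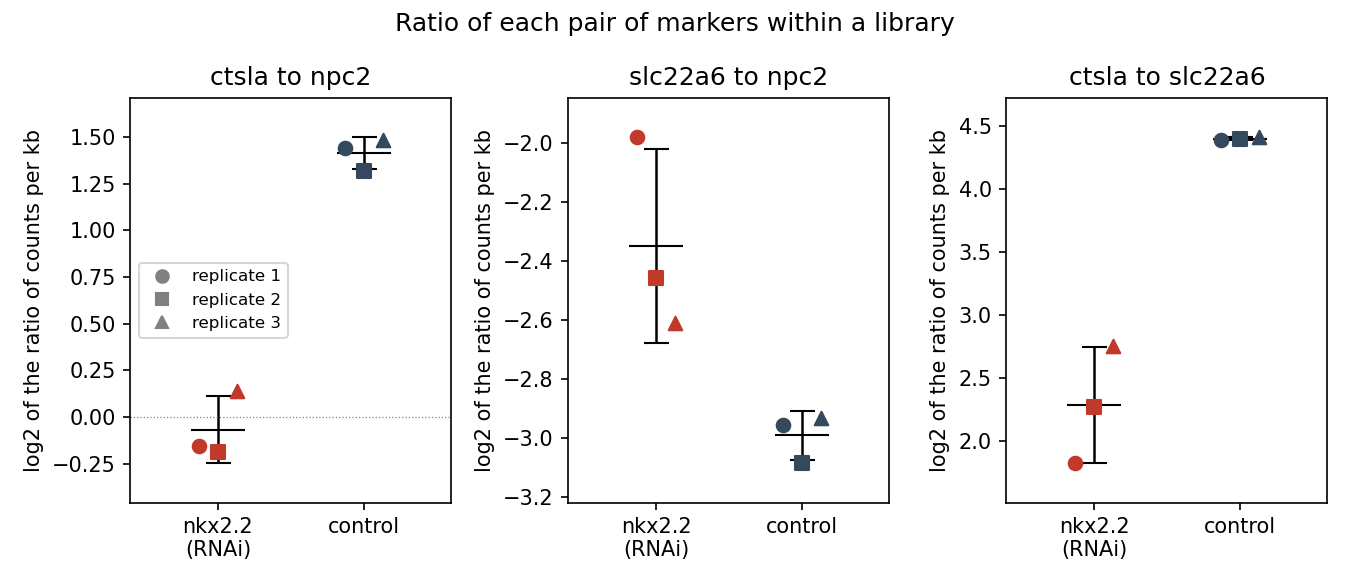
Log2 of the ratio of counts per kb for each pair of markers (1 panel each) in the 3 *nkx2.2(RNAi)* libraries (left, red) and the 3 control libraries (right, blue-grey), with the mean (long line) and SD (bars) and a symbol for each replicate; the axes do not start at 0. The ratio of *ctsla* to *npc2* is near 0 in *nkx2.2(RNAi)* (mean -0.07) and at 1.41 in controls, and the control ratios of *ctsla* to *slc22a6* fall almost on 1 point at 4.40.

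**Figure D3:**
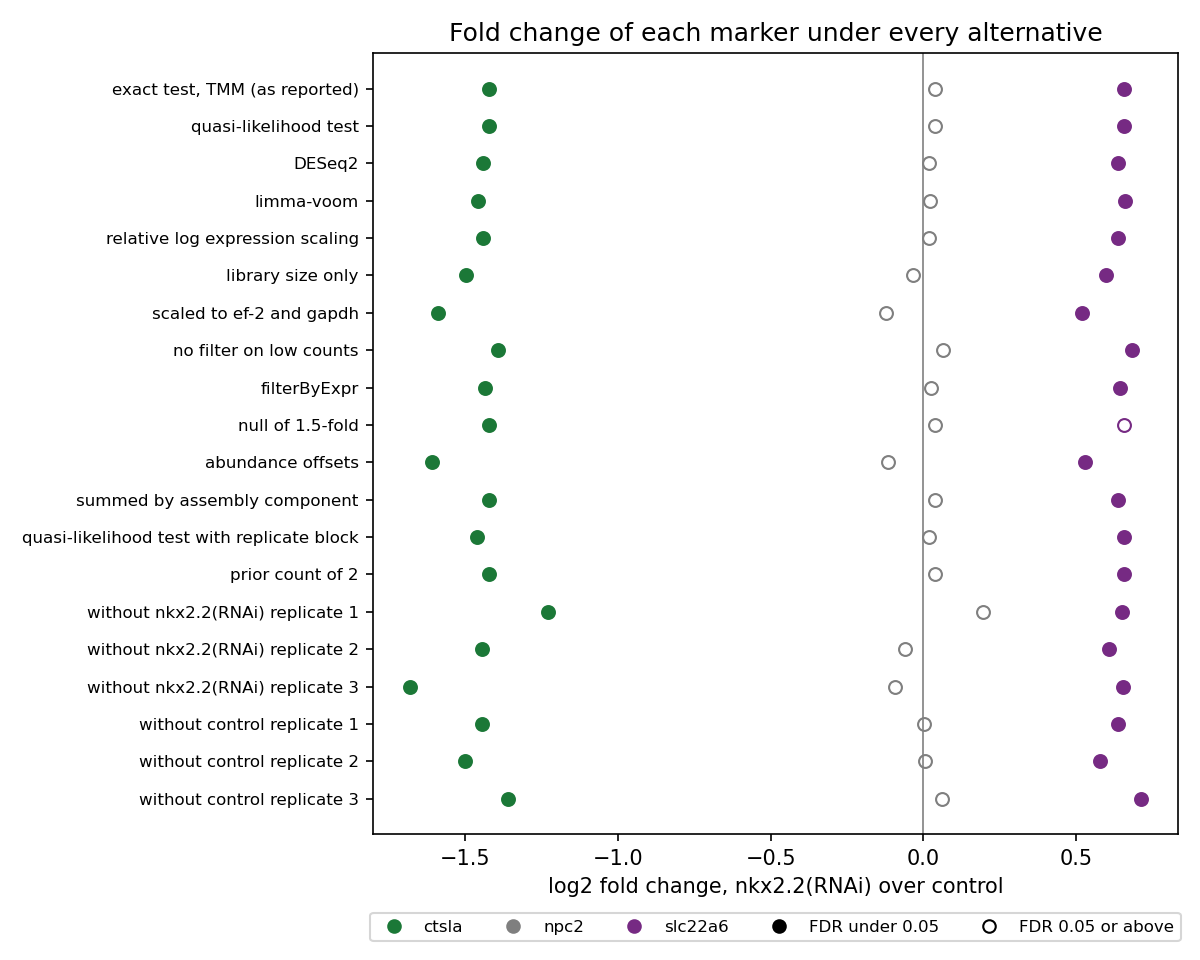
Log2 fold change (*nkx2.2(RNAi)* over control) of *ctsla* (green), *npc2* (grey) and *slc22a6* (purple) as reported in the top line and under each alternative below it; filled points passed an FDR of 0.05. *ctsla* stays between -1.68 and -1.23 and is always filled, *slc22a6* stays between 0.52 and 0.71 with 1 open point, and *npc2* lies on both sides of 0 and is never filled.

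The assembly holds a further transcript in the component of *slc22a6*, which may be another form of the same gene, and none for *ctsla* or *npc2*. This transcript, dd_Smed_v6_1159_1_1 (1430 bases), had 219, 102 and 110 counts in *nkx2.2(RNAi)* replicates 1 to 3, against 249, 253 and 222 counts in control replicates 1 to 3. It was rare, and after scaling all *nkx2.2(RNAi)* libraries were lower than all controls, as for 12.9% of all tested transcripts. This is the opposite direction to *slc22a6*. Its level was 2.37 ± 0.705 CPM in *nkx2.2(RNAi)* animals and 4.27 ± 0.527 CPM in controls (SD, n = 3 each). The log2 fold change of -0.84 (SE 0.26) passed the exact test (FDR 0.0186) but not the quasi-likelihood test (FDR 0.0737) in edgeR. By the exact test in edgeR the call held without *nkx2.2(RNAi)* replicate 1 (-1.12, FDR 9.3e-06) and without control replicate 3 (-0.94, FDR 0.0436). With any of the other libraries left out the log2 fold change stayed between -0.83 and -0.74, but the FDR was 0.167 without *nkx2.2(RNAi)* replicate 2, 0.136 without *nkx2.2(RNAi)* replicate 3, 0.122 without control replicate 1 and 0.0953 without control replicate 2. Per the study's methods a read that maps to both transcripts is counted at both, so reads of *slc22a6* may be among these. With the component summed, *slc22a6* was at 0.64 on the log2 scale.

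*npc2* is annotated with 4 cholesterol terms of the Gene Ontology (efflux, homeostasis, transport and intracellular transport) and with terms of lipid transport. Of 73 transcripts that share any of the 4 cholesterol terms, 65 were tested, and 15 were called lower (23.1%) and 4 higher (6.15%), beside 5.43% lower and 5.18% higher among all tested transcripts. Without *nkx2.2(RNAi)* replicate 1, 19 members were lower (29.2%) and 6 higher (9.23%), beside 17.1% lower and 14.3% higher among all tested transcripts, so the share of higher calls was then under that of all transcripts. With all libraries the median log2 fold change of the list was -0.06, against 0.02 over all tested transcripts. The lower members with the largest changes were *apob-1*, 2 transcripts annotated as ABCG2, and 1 each annotated as SGK3 and SLCO1B3. *apob-1* encodes an apolipoprotein B, the scaffold protein of secreted lipoproteins, and the study had chosen it and *apob-2* on these libraries. It was at 5.24 ± 0.940 CPM in *nkx2.2(RNAi)* animals and 693 ± 22.3 CPM in controls (SD, n = 3 each), or -7.04 on the log2 scale. ABCG2 is an exporter of the ATP-binding cassette family. Of the transcripts annotated to it, dd_Smed_v6_8560_0_1 was at 3.01 ± 0.725 CPM in *nkx2.2(RNAi)* animals and 45.9 ± 2.72 CPM in controls, and dd_Smed_v6_4081_0_1 at 6.62 ± 0.398 CPM in *nkx2.2(RNAi)* animals and 55.0 ± 3.55 CPM in controls. The kinase transcript dd_Smed_v6_4198_0_1 (SGK3) changed by -1.43 and dd_Smed_v6_3499_0_1 (SLCO1B3, an organic anion transporter of another family than SLC22) by -1.34. *npc2* was thus among the 46 tested members that were not called.

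The lipid transport list held 60 transcripts with any lipid transport term in the study's sheet, also terms that *npc2* does not carry. In it *npc2* has the terms glycolipid transport and phospholipid transport, while *apob-1* and *apob-2* have positive regulation of lipid transport. Of the 60 transcripts, 49 were tested, with 8 lower (16.3%) and 3 higher (6.12%) and a median log2 fold change of -0.04. With *nkx2.2(RNAi)* replicate 1 left out, 11 members were lower (22.4%) and 4 higher (8.16%), beside the same 17.1% and 14.3% over all transcripts. The lists share 24 transcripts, which are 32.9% of the cholesterol list and 40.0% of the lipid transport list, *npc2* included. Beside *apob-1*, the lower members with large changes included dd_Smed_v6_3616_0_1 (MCOLN2, a mucolipin cation channel, -1.56), *apob-2* (-1.28, with 244 to 427 CPM in *nkx2.2(RNAi)* libraries and 561 to 1157 CPM in controls) and dd_Smed_v6_10670_0_1 (ATP11B, a phospholipid flippase, -0.63). The quasi-likelihood test called the same number lower in this list and 0 higher, although 6 members were higher at an unadjusted p under 0.05 by either test. A further transcript of both lists, dd_Smed_v6_704_0_1, carries an NPC2 annotation of its own and was looked up after its values were seen. It stood at 51.6, 81.8 and 76.9 CPM in *nkx2.2(RNAi)* replicates 1 to 3, against 49.6, 51.4 and 48.4 CPM in control replicates 1 to 3. Replicate 1 was barely above the controls, and the log2 fold change of 0.49 (SE 0.21) passed the exact test (FDR 0.0299) but not the quasi-likelihood test (FDR 0.0966) in edgeR. Transcripts dd_Smed_v6_602_0_1 and dd_Smed_v6_4411_0_1 carry the same terms of both lists as *npc2* and were also looked up afterwards. Neither was called, with log2 fold changes of 0.06 (exact test FDR 0.760 in edgeR) and -0.02 (exact test FDR 0.965 in edgeR). Human matches were at hand for only part of the transcripts, and not for these or *npc2*.

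Other cathepsins were read from an annotation sheet that is shortened and ordered by the study's own FDR, so its members had to differ and their calls are a description only. Beside *ctsla* it held 8 cathepsin transcripts, 2 lower and 6 higher by the exact test (2 and 5 by the quasi-likelihood test). The most abundant, dd_Smed_v6_48_0_1 (CTSL), was at 1137, 1460 and 1908 CPM in *nkx2.2(RNAi)* replicates 1 to 3, against 6876, 7167 and 7234 CPM in control replicates 1 to 3. As with *ctsla*, *nkx2.2(RNAi)* replicate 1 was the lowest library and replicate 3 the highest of its group. The aspartic protease transcript dd_Smed_v6_329_0_1 (CTSD) was at 66.2% of the control level. On the other side, dd_Smed_v6_2268_0_1 (CTSV) was at 320 ± 14.6 CPM in *nkx2.2(RNAi)* animals and 85.1 ± 0.951 CPM in controls (SD, n = 3 each). dd_Smed_v6_13139_0_1 (CTSS) was at 45.7 ± 5.86 CPM in *nkx2.2(RNAi)* animals and 9.88 ± 0.850 CPM in controls (SD, n = 3 each). The other 4 higher transcripts had log2 fold changes between 0.38 and 0.97. Transcripts of 1 family may share reads, since reads mapping to several were counted at each.

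SLC22 transporters came from a sheet ordered by identifier, of which only the rows at hand were read. Of 5 such transcripts beside *slc22a6*, 0 were called by the exact test, the quasi-likelihood test, limma-voom or DESeq2, and 1 had an unadjusted p under 0.05 by the exact test, the quasi-likelihood test and limma-voom. Of all tested transcripts, 5.43% were called lower and 5.18% higher by the exact test, so 0 calls among 5 is near the general share. The identifiers of these 5 ran only from dd_Smed_v6_10826_0_1 to dd_Smed_v6_11135_0_1, so other members of the family may not be among the rows read. These 5 were far less abundant than *slc22a6*, with group means between 4.93 and 20.0 CPM, which describes these rows and not the family. Their log2 fold changes lay between -0.27 and 0.31. The one at 0.31, dd_Smed_v6_11135_0_1 (SLC22A7), was higher in every *nkx2.2(RNAi)* library than in every control, at 20.0 ± 0.550 CPM in *nkx2.2(RNAi)* animals and 16.2 ± 1.45 CPM in controls (SD, n = 3 each, exact test FDR 0.0867 in edgeR). Separation in that direction held for 14.7% of all tested transcripts. In the opposite direction, dd_Smed_v6_10826_0_1 (SLC22A5) was lower in every *nkx2.2(RNAi)* library than in every control, as were 12.9% of all tested transcripts. Its level was 11.7 ± 1.87 CPM in *nkx2.2(RNAi)* animals and 14.1 ± 0.269 CPM in controls (SD, n = 3 each, exact test FDR 0.269 in edgeR). Without *nkx2.2(RNAi)* replicate 1, dd_Smed_v6_11135_0_1 was called higher (FDR 0.0255 in edgeR) and dd_Smed_v6_10826_0_1 was called lower (log2 fold change -0.39, FDR 0.0132 in edgeR), in the setting where 17.1% of all tested transcripts were lower and 14.3% higher.

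**Figure D4:**
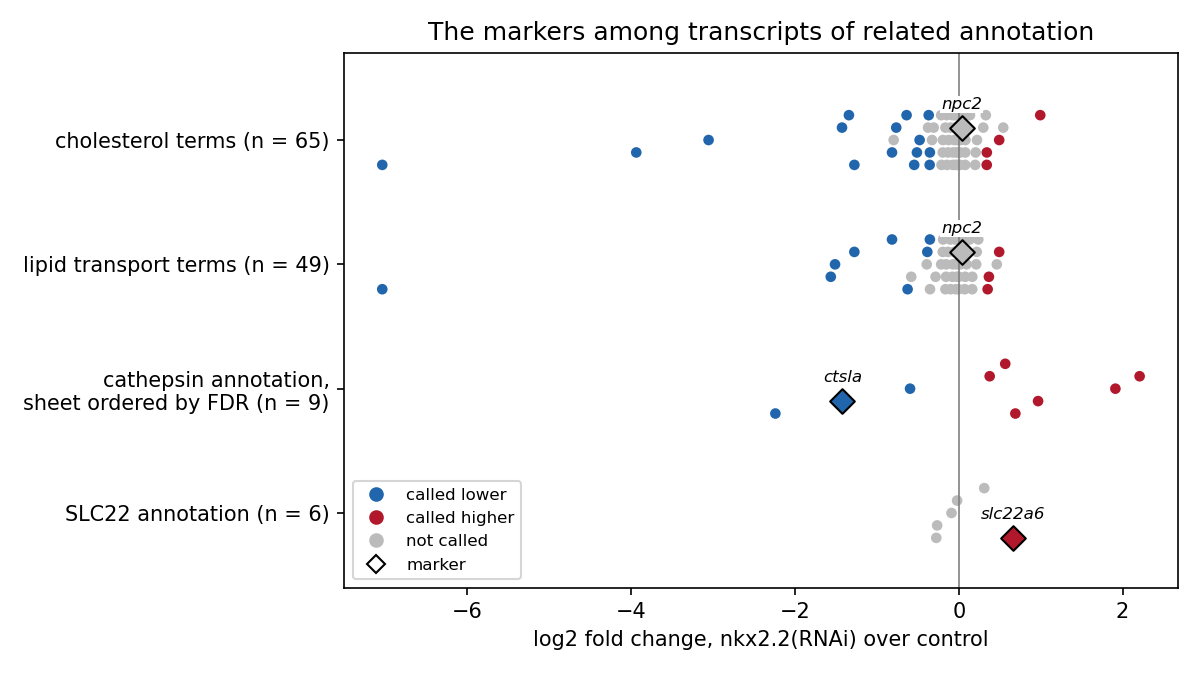
Log2 fold change (*nkx2.2(RNAi)* over control) of every tested transcript with a cholesterol term of *npc2*, and of those with any lipid transport term. Below them are the cathepsin transcripts in a sheet ordered by FDR and the SLC22 transcripts among the rows at hand. Diamonds are the 3 markers, and blue, red and grey mark calls lower, calls higher and no call by the exact test. The vertical scatter within a line has no meaning, the cathepsins were chosen on the outcome, and *npc2* sits at 0.04 amid members from -7.04 to 0.99.

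The transcripts most like each marker were sought among 9538 others with a mean of at least 10 CPM, by Pearson's r of log2 CPM over the 6 libraries. These points share their libraries and the split into groups, so r is a description. Closest to *ctsla* were dd_Smed_v6_1874_0_1 (SLC17A5, the lysosomal sialic acid transporter sialin), dd_Smed_v6_75_0_1 and dd_Smed_v6_7833_0_1 (PHLDB2), each with r = 0.997 or 0.998 and log2 fold changes of -0.70, -1.04 and -0.44. All 3 repeated the order of *ctsla* among *nkx2.2(RNAi)* libraries, lowest in replicate 1 and highest in replicate 3. For dd_Smed_v6_1874_0_1 the values were 128, 144 and 163 CPM in *nkx2.2(RNAi)* replicates 1 to 3, against 234, 231 and 239 CPM in control replicates 1 to 3. Closest to *npc2* were dd_Smed_v6_2786_0_1 (r = 0.998), dd_Smed_v6_1098_0_1 (MVP, the major vault protein, r = 0.988) and dd_Smed_v6_4515_0_1 (r = 0.987). None of the 3 was called, with log2 fold changes of 0.03, 0.01 and 0.01, and each had its lowest value in *nkx2.2(RNAi)* replicate 1. The *slc22a6* pattern was nearest to dd_Smed_v6_4435_0_1 (PIM1, a serine/threonine kinase, r = 0.999), dd_Smed_v6_6392_0_1 (r = 0.999) and dd_Smed_v6_4351_0_1 (r = 0.997). Their log2 fold changes were 0.97, 0.58 and 0.65. For dd_Smed_v6_4435_0_1 the values were 37.7, 39.2 and 35.7 CPM in *nkx2.2(RNAi)* replicates 1 to 3, against 18.5, 17.1 and 21.8 CPM in control replicates 1 to 3. In the sources used here dd_Smed_v6_75_0_1 had no human match listed, nor had dd_Smed_v6_2786_0_1, dd_Smed_v6_4515_0_1, dd_Smed_v6_6392_0_1 and dd_Smed_v6_4351_0_1.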

How the data were processed

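RNA-Seq libraries of 3 *nkx2.2(RNAi)* and 3 control replicates were compared. Groups and replicate numbers came from the sample titles. The authors trimmed reads with BBDuk, aligned them with Bowtie2 (2.3.1) to the unique transcripts of dd_Smed_v6, reporting all alignments, and summed them with featureCounts (Subread 1.6.3), counting reads that map to several transcripts at each. The deposited counts are whole numbers per transcript, not normalized. A last row, named by an asterisk, held 0 counts and was left out. The stated featureCounts options count fragments of read pairs, but a row of this kind comes from samtools idxstats, so whether the values are fragments, reads or alignments is uncertain. Every library held more counts than the reads per replicate that the study states, so the values are not fragments counted once each. Another deposited table, with the authors' log2 fold changes, mean log2 CPM and FDR, was not used. No genome was used.

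Following the study's methods, transcripts above 1 CPM in at least 3 libraries were kept (14871 of 28069), library sizes were computed anew and scaled by TMM (trimmed mean of M-values), and groups were compared by the exact test of edgeR 4.0.16 in R 4.3.3, two-sided, without covariates, at a Benjamini-Hochberg FDR of 0.05 over all tested transcripts. The quasi-likelihood test is given beside it. SEs come from the spread of log2 CPM within groups. A positive fold change is higher in *nkx2.2(RNAi)*. Alternatives were the quasi-likelihood test (also with a 1.5-fold null, abundance offsets or a replicate block), DESeq2 1.42.0, limma-voom (limma 3.58.1), other scalings (also to *ef-2* and *gapdh*), other filters, a prior count of 2, sums by assembly component, and each library left out. The fits were tested on simulated data. P-values measure the spread between these pooled replicates of 1 clonal line.

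Named transcripts were the 3 markers, their component, other cloned transcripts, SLC22 and cathepsin annotations, the 5 called members with the largest change of each Gene Ontology list (mean of at least 10 CPM), and the 3 transcripts most like each marker. A transcript that this rule names is not reported here. Markers and lists were chosen with earlier results of these data known.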

Additional observations from a re-analysis of the deposited data

How the results depend on the processing

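*ctsla* was lower and past the threshold under all 19 alternatives, with log2 fold changes from -1.68 to -1.23. *slc22a6* was past it under 18 of 19, from 0.52 to 0.71, and not under a null of 1.5-fold (0.66, FDR 1.00 in edgeR), which its own fold of 1.58 barely exceeds. *npc2* was never past the threshold. Its direction turned with library size only (-0.035), scaling to *ef-2* and *gapdh* (-0.12) and abundance offsets (-0.12), and ranged from -0.094 to 0.19 as each library was left out. Scaling to *ef-2* and *gapdh* put the median of all tested transcripts at -0.12 (0.02 with TMM) and the share of calls that were lower at 74.2% (51.2% with TMM). The 3 ratios kept their direction under all 9 alternatives each.

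The exact test called 808 transcripts lower and 771 higher, against 509 and 452 by the quasi-likelihood test, 533 and 459 by limma-voom, and 202 and 57 under a null of 1.5-fold. Higher calls were 236 scaled to *ef-2* and *gapdh* and 391 with abundance offsets. Leaving out 1 library gave 418 to 2508 lower and 292 to 2097 higher. The most calls came without *nkx2.2(RNAi)* replicate 1, and 485 lower and 292 higher remained in number without *nkx2.2(RNAi)* replicate 2, 541 and 311 without *nkx2.2(RNAi)* replicate 3, 418 and 370 without control replicate 1, and 499 and 476 without control replicate 3. The cause was not tested. In the cholesterol list (15 lower, 4 higher) higher calls were 2 by the quasi-likelihood test and limma-voom and 1 scaled to *ef-2* and *gapdh* or with abundance offsets, the null of 1.5-fold left 5 lower and 1 higher, and leaving out 1 library gave 1 to 6 higher. In the lipid transport list (8 lower, 3 higher) the null of 1.5-fold left 3 lower. Higher calls there were 0 by the quasi-likelihood test and limma-voom (6 at an unadjusted p under 0.05 by each), 0 scaled to *ef-2* and *gapdh* (1), 0 with abundance offsets (4) and 0 under a null of 1.5-fold (0), and 0 to 4 as each library was left out.

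Deviations of same-numbered libraries from their group means correlated at 0.40, 0.0028 and 0.17, which are not all above 0.1, and no label ties the numbers to a shared animal, batch or day, so the samples were taken as unpaired. Replicates 2 and 3 of *nkx2.2(RNAi)* correlated better with control replicates 3 (0.21) and 2 (0.24) than with their own number. Replicate 1 of *nkx2.2(RNAi)* correlated best with its own number (0.40), against -0.19 and -0.27 with control replicates 2 and 3. A shared origin of same-numbered libraries was not tested. With the replicate block, *ctsla* was at -1.46 (FDR 0.00015), *npc2* at 0.02 and *slc22a6* at 0.66 (FDR 0.0019) by the quasi-likelihood test in edgeR, which called 1075 lower and 797 higher, against 509 and 452 without the block. Within-number differences of the ratios averaged -1.48, 0.64 and -2.12, each with p = 0.25 by an exact sign test, the smallest that 3 pairs allow.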
